A study of Mus musculus and Homo sapiens with 6 samples.

Results

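The 10 Kruppel-like factor genes Klf1, Klf2, Klf3, Klf4, Klf5, Klf6, Klf7, Klf9, Klf10 and Klf13 were taken by name from 21900 protein-coding genes of the mouse annotation, and every open region that lay in such a gene or within 50 kb of it was collected. These were 85 of 55702 regions. The assay was ATAC-seq, where Tn5 transposase cuts open DNA and tags it, and the cells were NMuMG, an epithelial line from mouse mammary gland. The libraries were made from 25000, 50000, 75000 and 100000 cells of the same line, below passage 10 and labelled 0h with no agent named, with 1 library per cell number. Each library is a list of peaks with a position in mm10 and a whole-number score given by the authors. There is thus no replicate error, no test between cell numbers was made, and a region without a listed peak may still hold signal below the lowest listed score of 8. The series also holds 2 MDA-MB-231 samples, a human breast cancer line, not analysed here.

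Kruppel-like factors are transcription factors whose carboxy-terminal zinc fingers bind GC-rich sequence and CACCC boxes, the same kinds of site that Sp proteins bind. Some members mainly activate and others mainly repress their targets, the repressors by recruiting co-repressors such as CtBP or Sin3a. In epithelia the family is best known for Klf4 and Klf5, which are associated with differentiation and proliferation, while other members are known from blood cells, endothelium, neurons or hormone responses.

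The promoter sequences below are the 250 bases before the annotated start of 4 members, shown because their start peaks span the range found among the 10 members. They are from RefSeq, build GRCm38.p6, the assembly that mm10 names, and run 5′ to 3′ on the strand of the gene. Of the 10 members, 8 were matched in the promoter table, and Klf5 and Klf10 were not. Capitals mark CCNCNCCC, a box of the kind Klf and Sp proteins bind, on either strand. Overlapping matches were each counted as a box, so a capital stretch can hold several. Of the 10 members, Klf9 had the highest-ranking start peak by its mean percentile, Klf6 the most open regions around the gene, Klf3 the most boxes of the 8 promoters, and Klf4 the lowest-ranking start peak.
Klf9, chr19:23140976-23141225, plus strand: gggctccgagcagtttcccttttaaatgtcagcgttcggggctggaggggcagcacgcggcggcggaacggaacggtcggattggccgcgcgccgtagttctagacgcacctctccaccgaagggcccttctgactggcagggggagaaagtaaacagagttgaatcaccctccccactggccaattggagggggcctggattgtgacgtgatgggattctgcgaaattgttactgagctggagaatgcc
Klf6, chr13:5861239-5861488, plus strand: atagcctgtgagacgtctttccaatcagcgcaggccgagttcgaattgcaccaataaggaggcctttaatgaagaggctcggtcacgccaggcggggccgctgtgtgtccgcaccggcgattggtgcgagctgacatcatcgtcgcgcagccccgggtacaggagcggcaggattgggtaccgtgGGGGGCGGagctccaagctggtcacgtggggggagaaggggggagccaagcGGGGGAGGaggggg
Klf3, chr5:64803271-64803520, plus strand: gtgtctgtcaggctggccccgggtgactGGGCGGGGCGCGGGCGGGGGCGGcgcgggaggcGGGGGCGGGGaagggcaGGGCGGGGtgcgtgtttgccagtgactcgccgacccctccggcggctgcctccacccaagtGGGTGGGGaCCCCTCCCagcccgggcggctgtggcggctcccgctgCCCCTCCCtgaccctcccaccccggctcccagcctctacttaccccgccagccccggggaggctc
Klf4, chr4:55532476-55532725, minus strand: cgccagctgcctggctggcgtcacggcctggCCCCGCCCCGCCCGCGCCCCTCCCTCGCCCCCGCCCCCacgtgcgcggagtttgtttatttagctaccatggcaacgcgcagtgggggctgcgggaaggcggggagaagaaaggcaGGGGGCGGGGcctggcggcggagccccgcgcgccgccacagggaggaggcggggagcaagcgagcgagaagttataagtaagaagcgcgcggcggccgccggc

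Every one of the 10 genes had a listed peak within 1 kb of its start in all 4 libraries, with Klf5 and Klf10 judged at either annotated end. The same held for 45.9% of the 17492 protein-coding genes with a start in the table and, at either end, for 40.7% of the 4408 without one. The members were chosen with earlier results of these data known, and of the 7 other Klf genes 2 had a start peak in all 4 libraries. A peak covered the start base itself in all 4 libraries at 6 of the 8 members with a start (Klf2, Klf3, Klf4, Klf6, Klf9 and Klf13), against 40.7% of genes with a start. At Klf7 it did so in 2 libraries, and at Klf1 in none. Scores rank peaks within a list, so each start peak was also placed among all protein-coding genes with a start peak in the same library. By the mean of that percentile the order was Klf9 (96.8), Klf13 (92.1), Klf7 (88.0), Klf2 (87.6), Klf10 (87.4), Klf5 (82.7), Klf6 (82.6), Klf3 (65.9), Klf1 (65.8) and Klf4 (28.3). Neighbours in this order overlapped in their ranges over the 4 libraries except at the bottom, where the highest value of Klf4, 36.9, was below the lowest of Klf1, 58.4.

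**Figure D1:**
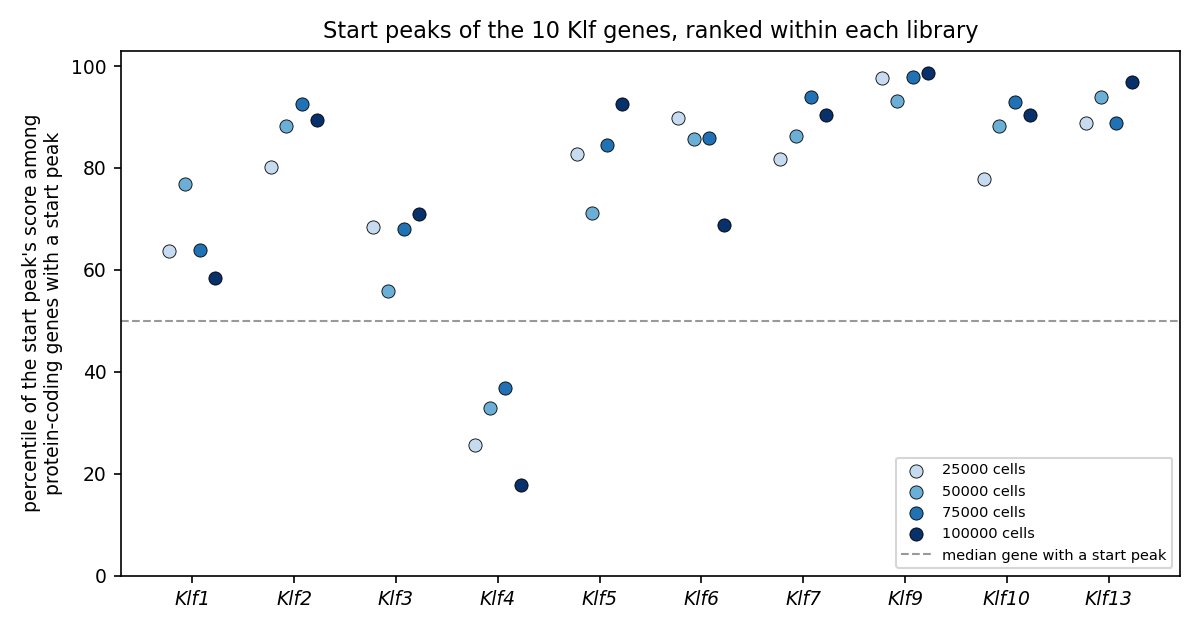
Percentile of the score of the highest peak within 1 kb of the start (either annotated end for Klf5 and Klf10) among protein-coding genes with such a peak in the same library, for the 10 genes on the horizontal axis and the 4 libraries as points from light (25000 cells) to dark (100000 cells). The points of Klf4, from 17.7 to 36.9, are the only ones below the dashed line at the median gene.

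Klf9, a factor induced by glucocorticoid and thyroid hormone, had the highest-ranking start peak by the mean percentile. Its scores were 86, 85, 102 and 124 at 25000, 50000, 75000 and 100000 cells, and its percentiles among start peaks were 97.7, 93.2, 97.9 and 98.6. At 50000 cells Klf13 ranked above it, with a score of 88 and a percentile of 94.0. The peak was also the most evenly placed, together with those of Klf3 and Klf10, with centres within 25 bp of each other in the 4 libraries. It reached from 725 to 775 bp before the start to 224 to 274 bp after it. It thus covered the whole promoter printed above, which holds no CCNCNCCC box but 3 CCAAT boxes. That promoter also holds 1 match to TGANTCA, a pattern looser than the AP-1 motif TGA(G/C)TCA. The match reads TGAATCA and so is not that motif itself. The next region, 5.83 kb upstream at chr19:23134601-23136200 in or within 1 kb of 2410080I02Rik, was the widest of the 85 at 1600 bp and scored 50, 59, 46 and 73. Beyond these, Klf9 had few strong regions: the remaining region present in all 4 libraries lay 21.35 kb into the gene and scored 10, 11, 11 and 10.

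Klf13, which encodes a factor known as a repressor that recruits Sin3a, had start peak scores of 57, 88, 66 and 104. The peak covered the start at chr7:63938551-63939900, and its centre moved by up to 250 bp between libraries. A second region in the start window, at chr7:63937051-63938100 just inside the gene, scored 27, 25, 27 and 30. With a length of 52565 bp Klf13 is long enough to hold 7 further regions, 3 of them present in all 4 libraries, and none of them scored above 35. The highest-ranking region outside the gene lay below it at chr7:63851601-63852350, overlapping the non-coding gene Gm39023, with scores of 41, 52, 37 and 41. Of the 11 Klf13 regions, 3 had Klf13 as the nearest protein-coding start, the others being nearer to E030018B13Rik, which lies inside Klf13.

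Klf2, a factor of endothelial cells and resting T cells, had start peak scores of 46, 72, 75 and 75 at chr8:72318501-72319450. The peak covered the start in every library. An upstream region 8.04 kb from the start, at chr8:72310701-72311350, scored 29, 38, 33 and 33, at list percentiles of 79.1 to 83.6, meaning its place among all peaks of the same list. The other regions around Klf2 were weak, with 2 present in all 4 libraries at 41.69 and 46.49 kb upstream, scores of 8 to 21, and Ap1m1 as the nearest protein-coding start.

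Klf7, known for its part in the development of neurons, scored 48, 68, 80 and 77 at its start, at chr1:64121351-64122550. Here the peak lay mainly before the start given in the table: at 25000 and 50000 cells it stopped 12 bp short of it, and at 75000 and 100000 cells it reached 38 bp past it. The annotated gene extends beyond that start, to 64122345, and the peak also lies within 1 kb of Gm35880. Inside the 92898 bp gene, the regions 32.96 kb (scores 24, 41, 27 and 43) and 84.24 kb (23, 33, 23 and 22) from the start were present in all 4 libraries. So were weaker ones inside it, 15.89 kb (12, 13, 12 and 15) and 2.41 kb (11, 12, 14 and 19) from the start. A region beyond the far end, 116.01 kb away, was also present in all 4, with scores of 40, 39, 31 and 42. Klf7 was the nearest protein-coding start for all 10 of its regions.

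Klf10, first described as an early gene induced by TGF-beta, carried a pair of strong regions. That at its upper annotated end, chr15:38300451-38301400, scored 44, 72, 77 and 77, and that 1.54 kb inside the gene from that end, chr15:38298701-38299650, scored 40, 82, 74 and 61. Both also lie in or within 1 kb of the non-coding gene Gm35248. A further strong region lay 46.41 kb below the gene at chr15:38244701-38245400, with scores of 36, 58, 35 and 63, and had Odf1 as the nearest protein-coding start.

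Klf5, associated with proliferating epithelial cells, scored 49, 48, 58 and 83 at its lower annotated end, at chr14:99298151-99299000. Apart from that it had the fewest regions of the 10 members, with a further 2. One of them, 2.89 kb below that end, was listed from 50000 cells up with scores of 9, 13 and 11. The other, 11.29 kb above the gene, was present in all 4 libraries and scored 15, 18, 12 and 23. No listed peak lay inside the gene away from its ends.

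Klf6, an immediate early gene expressed in many tissues, scored 59, 67, 60 and 47 at its start, at chr13:5860751-5861800. It was the member with the most regions, 15, of which 11 were present in all 4 libraries. These came to 10.1 per 100 kb of gene and flanks, at the 98.8 percentile of protein-coding genes, and Klf6 was the nearest protein-coding start for all 15. A region 23.96 kb upstream, at chr13:5837151-5837900, scored 50, 70, 57 and 74 and so ranked with the start region, with a mean list percentile of 95.1 beside 93.9 at the start. Regions 31.54 kb downstream of the start (33, 32, 41 and 42) and 10.06 kb downstream (28, 28, 20 and 32) followed. Within the gene, the 3 regions present in all 4 libraries had lower scores, from 8 to 22.

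Klf3, a repressor that recruits CtBP, had start peak scores of 36, 36, 41 and 49 at chr5:64802901-64803850. A region 2.78 kb inside the gene, at chr5:64805951-64806650, scored 55, 49, 44 and 43, and its mean list percentile of 90.2 was above the 86.4 of the start region, although the start peak scored higher at 100000 cells. Beyond the end of the gene there was a group of regions between 58.35 and 75.78 kb from the start, of which 4 of 5 were present in all 4 libraries. The highest-ranking of these were at chr5:64861451-64862300 (31, 52, 41 and 38) and chr5:64866851-64867650 (39, 52, 59 and 35). The nearest protein-coding start to both was that of Gm38457, a predicted gene that overlaps the start region and the one 2.78 kb inside Klf3. For chr5:64877851-64878550 and chr5:64878901-64879700, in the same group, it was that of Tlr1.

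Klf1, the erythroid factor that activates the adult beta-globin gene, had a peak in all 4 libraries, but inside the gene. It lay at chr8:84902651-84903750, began 669 to 869 bp after the start and scored 33, 54, 38 and 39. The promoter, the 250 bases before the start, was not covered by a listed peak in any library, and with a window of 500 bp to either side of the start Klf1 was the only member without a start peak. Other genes lie close to Klf1, and it was the nearest protein-coding start for 1 of its 8 regions. The strongest of the others, at chr8:84893401-84894250 and overlapping Gcdh, scored 46, 38, 53 and 61. That at chr8:84908251-84909100, overlapping Dnase2a, scored 26, 35, 20 and 45.

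Klf4, a factor of epithelial barrier formation that is also used to reprogram cells to pluripotency, had the lowest-ranking start peak. It scored 16, 23, 23 and 17 at chr4:55532201-55533200, at percentiles among start peaks of 25.6, 32.9, 36.9 and 17.7. The peak covered the start and the whole promoter in each library, in which its centre moved by up to 250 bp. All other Klf4 regions were also weak. The 3 others present in all 4 libraries lay 9.20, 10.45 and 46.53 kb upstream and scored between 11 and 23 in every library, and the 3 further ones were listed at 100000 cells only, with scores of 8, 12 and 14. For all 7 regions Klf4 was the nearest protein-coding start, and the upstream ones lie in or beside the non-coding genes Gm12506, Gm34343 and Gm12511.

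**Figure D2:**
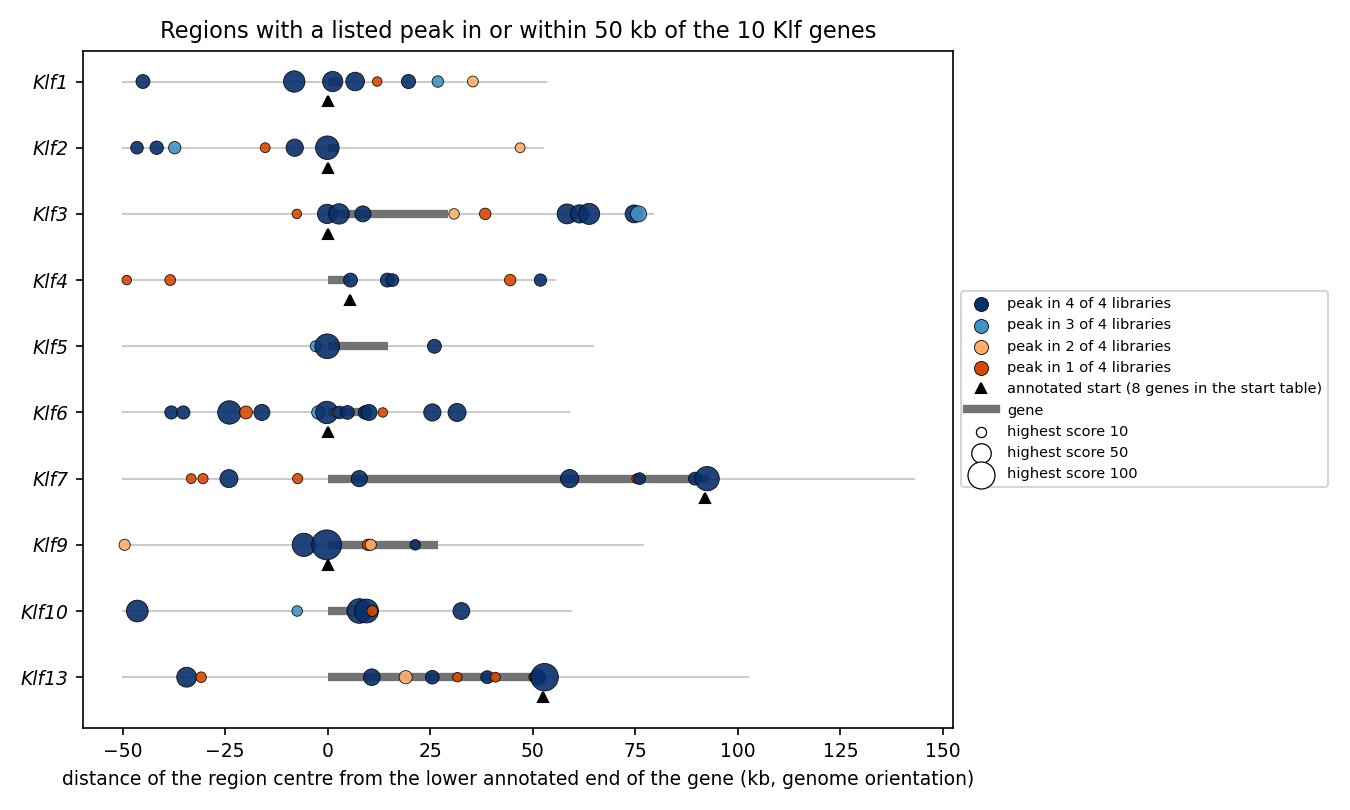
Each circle is a region in or within 50 kb of a Klf gene, placed by the distance of its centre from the lower annotated end of the gene in kb (genome orientation), with its area growing with the highest score and its colour giving the number of libraries with a peak. Klf6 has 15 regions, in the gene and on both sides of it, Klf5 has 3, and the largest circle is at the start of Klf9 with a highest score of 124.

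The promoters of the members were rich in CG dinucleotides, with a median of 22 in 250 bases over the 8 promoters, beside 10 over 21263 promoters of protein-coding genes, 17 over those of genes with a start peak in all 4 libraries and 3 over those of genes with none. Whether base composition has a part in the start peaks was not tested. A CCNCNCCC box was present in 6 of the 8, and in 52.9% of all promoters and 64.5% of those of genes with a start peak in all 4 libraries. Overlapping matches were each counted, which gave 38 boxes in the members. Of these, 23 overlapped a match to GGGCGG, the GC box (60.5%), and 9 a match to CACCC (23.7%). In all promoters the shares were 39.5% and 24% of 30305 boxes. Klf3 and Klf4 each held 7 of the 23, and promoters of genes with a start peak in all 4 libraries were not counted apart for this. The GC box was present in 6 of the 8 and in 42.6% of all promoters, CACCC in 6 and 54.2%, CCAAT in 4 and 35.4%, TGANTCA in 1 (Klf9) and 6.13%, and TATAAA in 0 and 11.6%, all on both strands. In the promoters of genes with a start peak in all 4 libraries these shares were 61% for the GC box, 56.8% for CACCC, 36.9% for CCAAT, 4.33% for TGANTCA and 5.75% for TATAAA.

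The order of box counts was not that of the start peaks. Klf3 had 10 CCNCNCCC boxes, Klf4 9, Klf7 8, Klf13 5, Klf2 4 and Klf6 2, while Klf9 and Klf1 had 0. Overlapping matches were each counted, so these are not all separate sites. The 9 of Klf4 lay from -219 to -182 and from -103 to -94 bp relative to the start. The lowest-ranking start peak, that of Klf4, thus lay over a promoter with 9 boxes and, at 32, the most CG dinucleotides of the 8, and the highest-ranking, that of Klf9, over one with no box and 18. Klf1 had 3 CG dinucleotides, the fewest. With 8 promoters this is a description only.

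Across the 10 genes, 52 of the 85 regions had a peak in every library (61.2%, with an exact 95% Clopper-Pearson interval from 50 to 71.6), beside 46.3% of all regions. A single library held 19 of them (22.4%, 14 to 32.7), beside 26.2% of all regions. These intervals cover counting error only, and neighbouring regions are not independent. The 11 regions at a start or annotated end were all found in 4 libraries, which largely restates the start result above. So were 14 of the 23 others inside the genes and 27 of the 51 in the flanks. Shares of all regions by place were not computed. The median highest score of the 11 was 75, and of all regions at 50 and above, 5721 of 5722 were found in 4 libraries. Klf regions had higher scores, with a median highest score of 21 beside 16 for all regions. By score, the share was 1 of 17 Klf regions (5.88%, 0.149 to 28.7) beside 9.35% of all regions at highest scores of 10 to 14, and 16 of 17 (94.1%, 71.3 to 99.9) beside 96.6% at 25 to 49, with the share of all regions inside the interval in both. At 15 to 24 it was 18 of 22 (81.8%, 59.7 to 94.8) beside 57.2%, which lay below the interval.

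**Figure D3:**
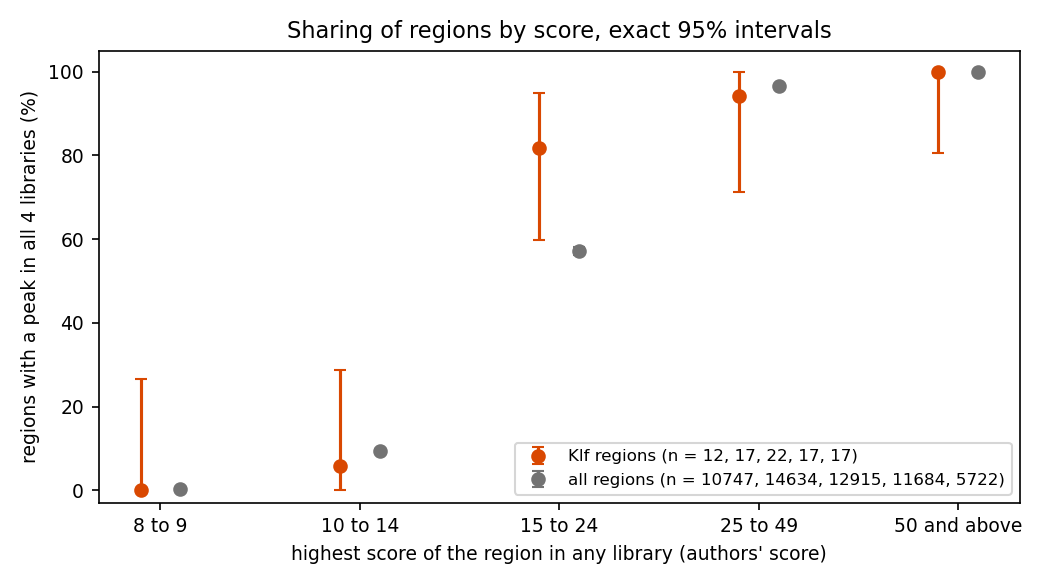
Share of regions with a peak in all 4 libraries, by the highest score of the region in any library, for the Klf regions (orange) and all regions of the series (grey), with exact 95% intervals for counting error. In both sets the share climbs with the score, from 0 of 12 Klf regions at scores of 8 to 9 to 17 of 17 at 50 and above.

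Between the genes, the number of regions present in all 4 libraries ran from 2 at Klf5 and 3 at Klf9, through 4 at Klf2, Klf4 and Klf10, 5 at Klf1, 6 at Klf7 and Klf13 and 7 at Klf3, to 11 at Klf6. Per 100 kb of gene and flanks the median of the members was 3.85, beside 1.72 for all protein-coding genes. The member values include the start region of every member and so partly restate the start result. A density without start regions was not computed. At least 1 region present in all 4 libraries, in the gene or within 50 kb, was found for 74.6% of protein-coding genes. Every member had one, which already follows from its start region and is no further result. Klf5 was near the middle of all genes by this density, at 1.74 per 100 kb and the 50.7 percentile, and Klf3 was next below Klf6 at 5.41 and the 88.5 percentile.

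**Figure D4:**
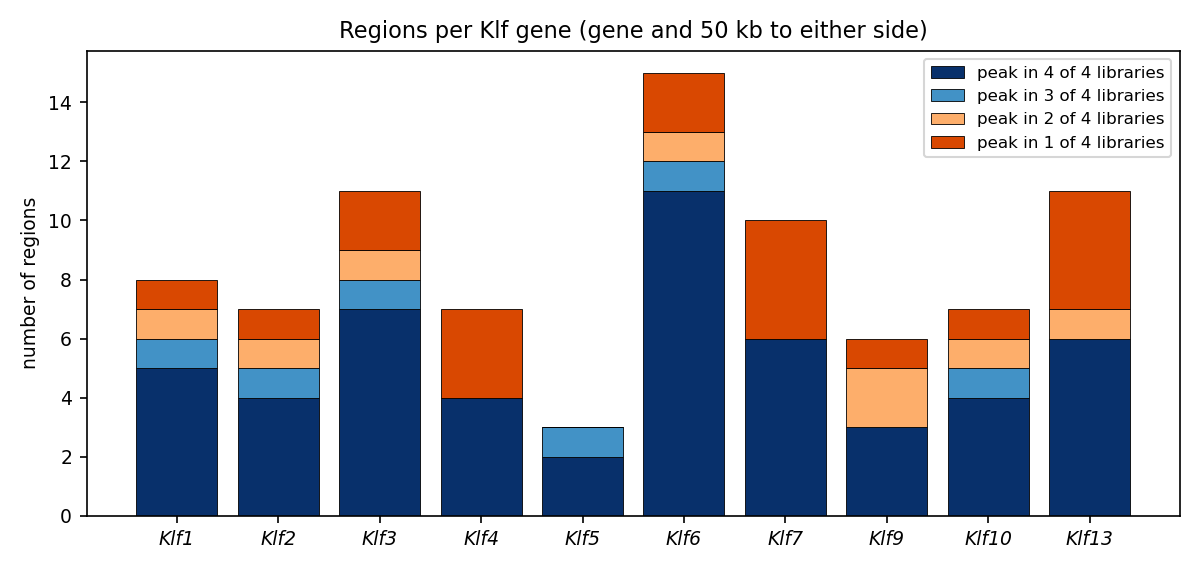
Number of regions in each of the 10 genes and the 50 kb to either side, stacked by the number of libraries with a peak in them. Klf6 has the most regions present in all 4 libraries (11) and Klf5 the fewest (2).

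By cell number, the Klf genes held 66, 81, 68 and 82 peaks at 25000, 50000, 75000 and 100000 cells, which is 0.17%, 0.185%, 0.164% and 0.18% of lists of 38878, 43832, 41509 and 45530 peaks. The counts thus rank as the list lengths do, and the counting intervals of the shares (0.131 to 0.216, 0.147 to 0.23, 0.127 to 0.208 and 0.143 to 0.224) overlap. The depth behind the lists is unknown. Of the 19 regions found in 1 library, 3, 6, 2 and 8 came from 25000, 50000, 75000 and 100000 cells. The 5 with the highest scores were upstream of Klf6 at chr13:5841301-5841850 (19 at 50000 cells), inside Klf9 at chr19:23150801-23151350 (14 at 50000 cells), downstream of Klf3 at chr5:64841651-64842200 (14 at 100000 cells) and on either side of Klf4 at chr4:55571351-55571900 (14) and chr4:55488501-55489000 (12), both at 100000 cells. A region near Klf10, chr15:38302151-38302500, listed at 25000 cells only, also scored 12. Of the 6 regions found in 3 libraries, 4 were missing at 25000 cells and 2 at 75000 cells. The highest-scoring of these was downstream of Klf3 at chr5:64878901-64879700, with 21, 32 and 15 from 50000 cells up and no listed peak at 25000 cells.

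Start peaks of related genes were counted in the same way, without a test between lists; the share over the genome was 44.9% of all protein-coding genes judged at a start, or at either end where no start is in the table. Of the 7 other Klf genes, Klf11 (33, 44, 37 and 53) and Klf16 (21, 56, 43 and 64) had a start peak in all 4 libraries. Klf16 was judged at either annotated end. Klf8, Klf12, Klf14, Klf15 and Klf17 had one in none. Klf14 and Klf17 had no listed region in the gene or within 50 kb either, whereas Klf15 had 9, with 4 of them in all 4 libraries. Of the 9 Sp genes, Sp1, Sp2, Sp3 and Sp4 had one in all 4 libraries, Sp8 in 3 with scores of 13, 9 and 13, and Sp5, Sp6, Sp7 and Sp9 in none. Sp1 scored 85, 144, 138 and 131.

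Among 10 genes for proteins that Kruppel-like factors bind or are modified by, 9 had a start peak in all 4 libraries: the deacetylase genes Hdac1 and Hdac2, the acetyltransferase genes Ep300, Crebbp and Kat2b, the co-repressor genes Ctbp1 and Sin3a, and the ubiquitin ligase genes Wwp1 and Fbxw7. Of these, Hdac1 and Wwp1 were judged at either annotated end, so the peak may lie at the far end of the gene. Ctbp2 had none at the starts in the table, but 11 regions present in all 4 libraries in the gene or within 50 kb. Among 10 genes reported as Klf targets in various cells, 7 had a start peak in all 4 libraries (Cdkn1a, Ccnd1, Lgals3, Tgfb1, Tgfbr1, Smad7 and Nos3) and 3 in none. The peaks of Ccnd1, Smad7 and Nos3 were likewise judged at either annotated end. Those without were the beta-globin gene Hbb-bt, S1pr1 and Thbd. Over all protein-coding genes the share with a start peak in all 4 libraries was 44.9%, as given above.

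The label of an epithelial line was set against markers at the same windows, where 44.9% of all protein-coding genes had a start peak in all 4 libraries. Of 8 epithelial markers, 6 had a start peak in all 4 libraries (Cdh1, Krt8, Krt18, Krt19, Jup and Dsp), and Epcam and Cldn3 had none. Of 6 fibroblast markers 1 had one, Col1a1, with scores of 33, 30, 29 and 34. Cdh1, Krt19 and Col1a1 were judged at either annotated end. None of 5 blood and 4 endothelial markers had one in any library, among them Ptprc, Hba-a1 and Pecam1.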

How the data were processed

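Cells were lysed, nuclei treated with Tn5 transposase and DNA amplified by PCR, per the labels' protocols. Builds mm10 and hg19 are named in the submitters' processing notes, as are the tools bedtools 2.17.0, Picard 1.107, Bowtie 0.12.8, SAMtools and cutadapt; mm10 was taken for these libraries. How peaks were called, and whether reads were shifted or thinned, is not given in the sources used here. For each library the authors deposited 1 peak list, with a score per peak whose computation is not stated; positions move in steps of 50 bp, and read depth is unknown.

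With Python 3.11.15, numpy 2.4.6, pandas 2.3.3, scipy 1.17.1 and matplotlib 3.10.9, the 4 lists were merged into regions where peaks overlapped by at least 1 bp, and a region took the highest score per library. Regions overlapping a gene or 50 kb to either side were kept. Starts came from the RefSeq promoter table (GRCm38.p6), or both annotated ends where it has no entry; exons, introns and UTRs were not separated. Percentiles count ties at their midpoint. Motifs were searched on both strands in 250 bases before each start, and overlapping matches were each counted. Overlap functions were tested on simulated data.

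All members are described, with up to 3 further regions each present in all 4 libraries by mean list percentile, and the 5 highest-scoring regions of 1 library; some other regions were named after their values were seen. The members and lists were chosen with earlier results of these data known, and some items of the lists are not reported here. Hbb-b1 was left out of both its lists after the data were seen, because the gene table gives it a position below 3 Mb of its chromosome, where no listed peak lies wholly below. Alternatives were other windows, score and list-length limits, resized or merged peaks, reciprocal overlap, nearest genes and leaving out each library.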

Additional observations from a re-analysis of the deposited data

How the results depend on the processing

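The 10 members with a start peak in all 4 libraries numbered 9 to 10 under the 10 alternatives that bear on it, Klf1 being lost with 500 bp windows and with peaks resized to 200 bp. Regions present in all 4 libraries numbered 25 in gene bodies alone, 31 with a 10 kb flank, 79 with a 100 kb flank and 32 with peaks that reached the median score of their list, against 52. In the same settings the peaks of the 4 lists together numbered 128, 184, 455 and 170, against 297; the smaller or larger windows and lists hold these changes by construction. The share of Klf regions in all 4 libraries was 73.5% in gene bodies, start regions included, and none was computed for all regions in gene bodies. With peaks resized to 200 bp it was 49%, where that of all regions was 41.8%. With peaks that reached the median score it was 58.2% beside 49.9% of all regions, and with equal numbers of highest-scoring peaks 64.9% beside 47.4%. Leaving out 1 library at a time gave 52 to 56 regions present in all the others, 65.0% to 68.3% of the regions, and 10 members with a start peak each time. The matching shares of all regions were not computed. The gene table places 108 protein-coding genes below 3 Mb of a chromosome other than Y and MT, where no listed peak lies wholly below that position; without them, an alternative added after the data were seen, the share of genes with a start peak in all 4 libraries was 45.1% of 21792, against 44.9%, and 41.8% of those without a start in the table, against 40.7%. No paired analysis was possible because each cell number has 1 library. The unknown depth and the lowest score of 8 limit what the absence of a peak shows.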
